A study of Mus musculus with 14 samples.

Results

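Of the 13866 genes listed for these mouse brains, 10 are described here, the cathepsins Ctsa, Ctsb, Ctsc, Ctsd, Ctsf, Ctsh, Ctsl, Ctss and Ctsz and the cathepsin inhibitor Cst3 (cystatin C), chosen by symbol. All 10 were listed and all 10 were among the 11852 genes that passed the filter on low counts. The RNA came from brain homogenates of 14 mice of 19 days, with 1 library per mouse. WT mice (C57BL/6JOlaHsd) and MyTrMaSt null mice were injected every day from the second postnatal week with PBS or with 100 mg/kg conduritol B-epoxide (CBE), an irreversible inhibitor of a lysosomal enzyme that produces a chemical model of neuronopathic Gaucher disease. MyTrMaSt null mice carry Myd88-/-, Trif-/-, Mavs-/- and Sting-/- together, and so lack the adaptors through which most innate sensors of nucleic acids and microbial products signal. The 4 groups were WT + PBS (3 mice), WT + CBE (3), MyTrMaSt + PBS (3) and MyTrMaSt + CBE (5). The labels name no promoter or cell type to which the deletions would be restricted, and no mice were pooled.

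Cathepsins are the main proteases of the lysosome. They are made as inactive precursors, are sorted to the lysosome mostly by the mannose 6-phosphate receptors, and are activated there by cleavage at acid pH. Ctsd is an aspartic protease, Ctsa a serine carboxypeptidase, and the remaining members are cysteine proteases, of which Ctsb, Ctsl, Ctsf and Ctss cut inside proteins while Ctsc, Ctsh and Ctsz trim their ends. Cst3 is a secreted inhibitor of the cysteine cathepsins and does not inhibit Ctsd. In the brain, Ctss is largely a microglial gene, Ctsd and Ctsb are made by neurons and glia, and Cst3 is abundant in astrocytes, microglia and choroid plexus.

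Many lysosomal genes carry the CLEAR element, an E-box bound by TFEB and its relatives, and RefSeq gave a promoter window of 300 bases (250 before and 50 after the start, GRCm38.p6) for 8 of the 10 members. The E-box core CACGTG was searched on both strands, as were its extended form TCACGTGA, which contains the core and is counted under both, the PU.1 core GAGGAAGT, and the interferon-stimulated response element (ISRE) core, which is GAAA, any 2 bases, and GAAA. Over all 32851 promoter windows, 7.15% held the E-box core, 0.974% the extended form, 3.2% the PU.1 core and 3.44% the ISRE core. The windows of Ctsd, Ctsl and Ctsf and the second of the 2 Ctsa windows held an E-box core. Those of Ctsd and Ctsa also held the extended form. Ctss held an ISRE core that begins 21 bases before the start, and a PU.1 core on the opposite strand that spans the start. Ctsc also held a PU.1 core on the opposite strand, and the windows of Ctsz and Cst3 and the first window of Ctsa held none of these letters. The stretches before the start that hold matches are printed here 5′ to 3′ on the strand of the gene, so that the members compared in what follows can be read beside their promoters. The capitals mark the matches, which are a description of these letters and not bound sites. A further extended form in the second Ctsa window, at bases 4 to 11 after the start, and the PU.1 core of Ctss are not printed.
Ctsd, E-box and extended form (chr7:142387899-142388077, minus strand): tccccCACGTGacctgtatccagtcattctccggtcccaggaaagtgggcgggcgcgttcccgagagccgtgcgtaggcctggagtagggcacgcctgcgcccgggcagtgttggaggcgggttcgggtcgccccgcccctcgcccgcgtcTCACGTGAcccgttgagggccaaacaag
Ctsa, second window, extended form (chr2:164833740-164833772, plus strand): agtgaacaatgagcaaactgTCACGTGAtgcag
Ctsl, E-box (chr13:64370731-64370770, minus strand): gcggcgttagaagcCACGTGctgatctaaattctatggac
Ctsf, E-box (chr19:4855066-4855111, plus strand): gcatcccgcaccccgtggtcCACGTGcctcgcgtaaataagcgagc
Ctss, ISRE core (chr3:95526745-95526785, plus strand): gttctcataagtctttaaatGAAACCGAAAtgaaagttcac
Ctsc, PU.1 core (chr7:88277914-88277961, plus strand): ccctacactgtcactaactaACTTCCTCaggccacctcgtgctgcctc

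The libraries held 1290616 to 3704691 counts. WT + PBS replicate 1 had the fewest counts and stood apart. Its log2 profile differed from those of the other WT + PBS libraries by a root mean square of 1.13 on average, against 0.396 to 0.574 for the libraries of the other groups. It held 4 counts of Ctsb and 3 of Ctsc. Values without this library are given beside a number of the results. The sexes were unequal between groups. By Xist and Y-linked counts, all 3 WT + PBS mice were male and all 3 MyTrMaSt + PBS mice were female, with 2 females and 1 male in WT + CBE and 4 females and 1 male in MyTrMaSt + CBE. Of the deleted genes, Myd88 was counted 9 to 17 times in MyTrMaSt + PBS libraries, against 19 to 36 times in WT + PBS libraries. After CBE it was lower in MyTrMaSt by a log2 of -1.77 (adjusted p = 0.000294, edgeR), the direction of the label. Ticam1 (Trif) had 10 to 26 counts in both the MyTrMaSt and the WT libraries. Mavs had 7 to 30 in MyTrMaSt and 11 to 31 in WT. Tmem173 (Sting) went against the label after PBS, with a mean of 6.09 CPM in MyTrMaSt and 1.69 CPM in WT (18 to 20 and 1 to 9 counts, adjusted p = 0.101). The 3′ counts of Ticam1, Mavs and Tmem173 thus do not check the genotype, and the libraries are called by their labels.

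CBE was followed by higher levels of most cathepsins in both genotypes. In WT mice, 6 of the 10 members were upregulated DEGs (an adjusted p below 0.05 in the edgeR quasi-likelihood test and a change of 2-fold or more): Ctsc, Ctsz, Ctss, Ctsd, Ctsl and Ctsh. Of all genes tested, 5.2% were upregulated DEGs in that comparison. In MyTrMaSt mice 4 of the 10 were upregulated DEGs, Ctsz, Ctsd, Ctss and Ctsc, where 3.23% of all genes were. None of the members was a downregulated DEG in either genotype. The median log2 fold change of the members was 1.61 in WT and 0.77 in MyTrMaSt, beside -0.018 and 0.0052 over all genes tested. All WT + CBE libraries lay above all WT + PBS libraries for 7 of the 10 members, beside 15.1% of all genes, and the same held in MyTrMaSt for 8 of the 10, beside 11.8% of all genes. Without WT + PBS replicate 1 the WT values were 6 DEGs, where 6.58% of all genes were DEGs in either direction, a median of 1.62, and 8 members without overlap, beside 22.6% of all genes. Ctsa was the one member that passed the filter only through CBE libraries. These are homogenates of many cell types, in which fewer cells of a type and less RNA per cell cannot be told apart. Levels are given throughout as CPM, that is, counts of 3′ ends in proportion to the TMM-scaled size of the library, so that a level does not scale with the length of the transcript.

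**Figure D1:**
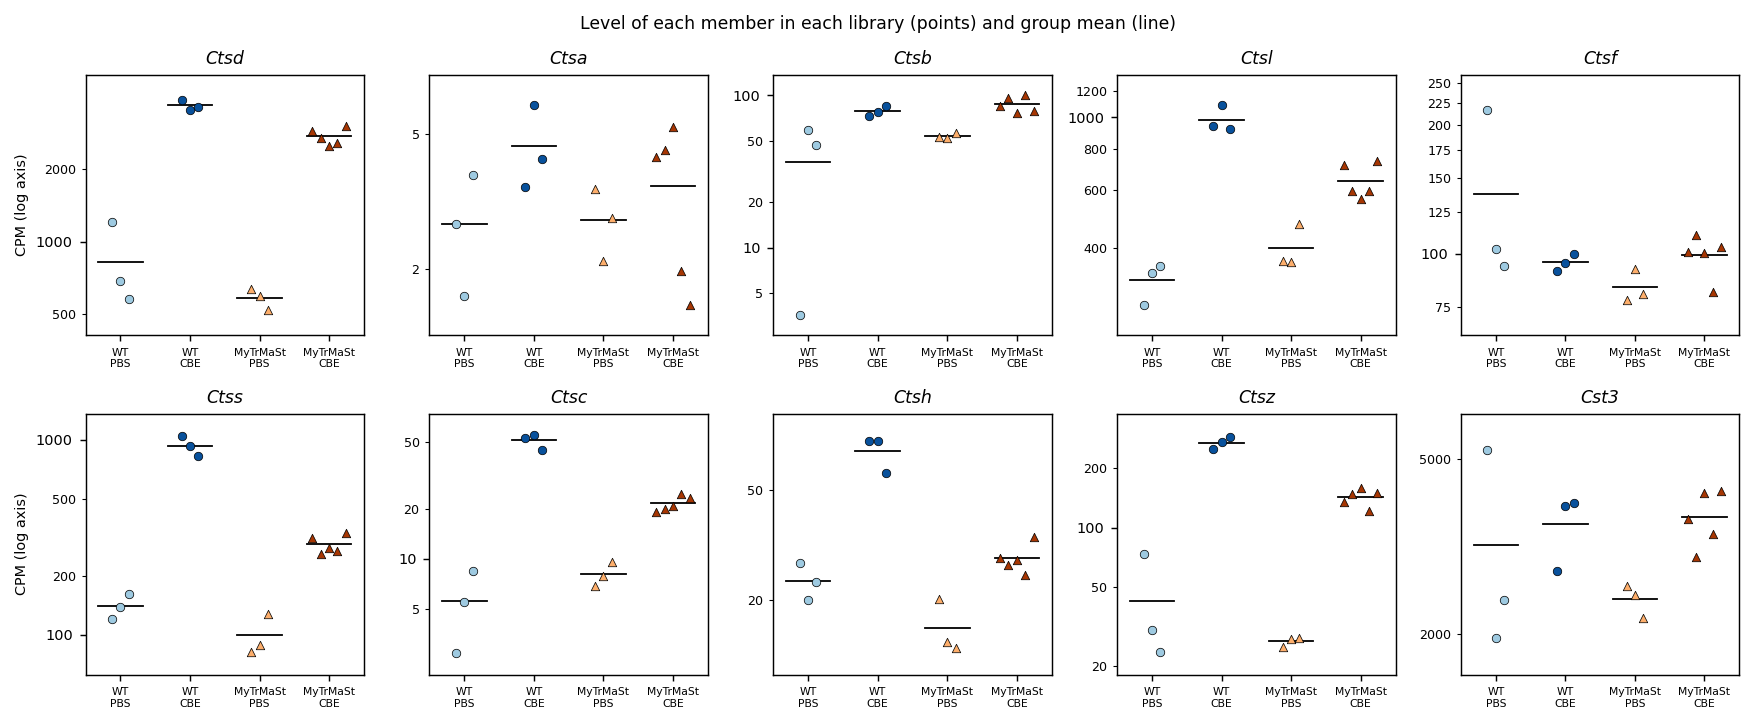
CPM of each of the 10 members (log axis) in each library, with the 4 groups along the x axis, libraries as points in the order of their replicate numbers and the group mean as a line. The WT + CBE points of Ctss, Ctsc, Ctsh, Ctsl, Ctsz and Ctsd lie above all points of the other groups, and WT + PBS replicate 1 lies apart from its group for Ctsb, Ctsf, Cst3, Ctsz and Ctsd.

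Ctsd, the aspartic protease, had the highest level of the 9 cathepsins in every library. It stood at 1209, 687 and 578 CPM in WT + PBS and at 3886, 3531 and 3639 CPM in WT + CBE. In MyTrMaSt + PBS it stood at 633, 594 and 519 CPM and in MyTrMaSt + CBE at 2884, 2704, 2497, 2569 and 3022 CPM. The CBE libraries lay above all PBS libraries in both genotypes, and the MyTrMaSt + CBE libraries all lay below the WT + CBE libraries. Ctsd rose 4.48-fold in WT (log2 2.16 ± 0.21 SE, adjusted p = 7.59e-07, edgeR) and 4.70-fold in MyTrMaSt (log2 2.23 ± 0.19, adjusted p = 7.82e-07). The rise in MyTrMaSt minus that in WT was 0.07 on the log2 scale with a 95% interval from -0.49 to 0.63, and it was -0.31 without WT + PBS replicate 1 (adjusted p = 0.462). After CBE the level in MyTrMaSt was 0.742-fold of that in WT, which did not pass the test over all genes (log2 -0.43 ± 0.17, adjusted p = 0.426). Without WT + PBS replicate 1, the same difference was -0.44 with an adjusted p of 0.00499 and still under 2-fold.

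Ctsa, the carboxypeptidase that also protects beta-galactosidase and neuraminidase in a complex, was the lowest member. It had 3 to 13 counts in every library, which limits what can be read from it. Its level was 1.66 to 3.80 CPM after PBS and 3.49 to 6.10 CPM after CBE in WT mice, and 2.11 to 3.45 and 1.57 to 5.27 CPM in MyTrMaSt mice. The groups overlapped in every comparison. The log2 difference with CBE was 0.79 in WT (95% interval -0.23 to 1.80) and 0.37 in MyTrMaSt (-0.49 to 1.23), intervals wide enough to hold a difference of either sign.

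Ctsl, an endopeptidase active in most cells, stood at 269, 336 and 354 CPM in WT + PBS and at 937, 1091 and 922 CPM in WT + CBE. In MyTrMaSt it went from 366, 365 and 476 CPM to 717, 597, 566, 595 and 735 CPM. All 4 groups were ordered without overlap, with WT + PBS lowest and WT + CBE highest. Ctsl rose 3.07-fold in WT (log2 1.62 ± 0.16, adjusted p = 1.29e-06, edgeR). In MyTrMaSt it rose by 0.68 ± 0.14 on the log2 scale (adjusted p = 0.00646), under the 2-fold limit of a DEG. After CBE it was lower in MyTrMaSt by a log2 of -0.61 (adjusted p = 0.0166), also under 2-fold. The difference between the rises was -0.94 ± 0.21, with an adjusted p of 0.0609 over all genes, of 0.0276 without WT + PBS replicate 1 and of 0.00355 with DESeq2. The other 20 of 22 alternatives gave no call, with adjusted p-values up to 0.274.

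Ctss, the endopeptidase that keeps its activity at neutral pH and removes the invariant chain from MHC class II, stood at 120.0, 139.8 and 163 CPM in WT + PBS and at 1040.5, 935 and 825 CPM in WT + CBE. In MyTrMaSt + PBS it stood at 81.8, 89.3 and 128 CPM and in MyTrMaSt + CBE at 314, 261, 280.4, 268 and 333 CPM. All 5 MyTrMaSt + CBE libraries lay above every PBS library and far below every WT + CBE library. Ctss rose 6.60-fold in WT (log2 2.72 ± 0.19, adjusted p = 1.58e-08, edgeR) and 2.92-fold in MyTrMaSt (log2 1.55 ± 0.17, adjusted p = 8.20e-06). After CBE it was lower in MyTrMaSt than in WT by a log2 of -1.68 ± 0.15, or 3.21-fold (adjusted p = 6.13e-07). After PBS the log2 difference was -0.51, with an adjusted p of 0.182.

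Ctsb, an abundant endopeptidase that can also act as an exopeptidase, stood at 3.61, 59.1 and 46.8 CPM in WT + PBS. The low value is that of replicate 1, with 4 counts. In WT + CBE its level was 72.7, 77.9 and 85.0 CPM. In MyTrMaSt + PBS it was 52.8, 52.0 and 56.0 CPM, and in MyTrMaSt + CBE 75.8 to 100.4 CPM with a median of 85.3. The CBE libraries lay above the PBS libraries in both genotypes. The log2 difference with CBE was 0.97 ± 0.39 in WT (adjusted p = 0.123, edgeR) and 0.70 ± 0.34 in MyTrMaSt (adjusted p = 0.219). Without WT + PBS replicate 1 Ctsb rose by 0.56 ± 0.16 in WT (adjusted p = 0.023) and by 0.71 ± 0.13 in MyTrMaSt (adjusted p = 0.000531), both under 2-fold. Without WT + PBS replicate 2 the WT value was 1.46 with an adjusted p of 0.0324, a DEG.

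Ctsf, a less well studied endopeptidase of the lysosome, stood at 217, 103 and 93.7 CPM in WT + PBS and at 91.1, 95.3 and 100.02 CPM in WT + CBE, so that the WT groups overlapped. In MyTrMaSt it stood at 78.0, 91.9 and 80.7 CPM after PBS and at 81.2 to 111 CPM after CBE, with a median of 101. The log2 difference with CBE was -0.50 in WT (95% interval -0.999 to 0.0013) and 0.25 in MyTrMaSt (-0.19 to 0.70). When WT + PBS replicate 1 was left out, the WT value was -0.04 ± 0.14 (adjusted p = 0.91, edgeR). Ctsf had no call in any comparison.

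Ctsc, the dipeptidyl peptidase that activates serine proteases of immune cells, had the largest fitted fold change of the members in WT with all libraries, a rank that rests on WT + PBS replicate 1. It stood at 2.71, 5.53 and 8.44 CPM in WT + PBS, from 3 to 20 counts, and at 53.2, 55.4 and 45.2 CPM in WT + CBE. In MyTrMaSt it went from 6.91, 7.93 and 9.51 CPM to 19.1, 19.9, 20.7, 24.6 and 23.1 CPM. The 2 PBS groups overlapped, and the MyTrMaSt + CBE libraries lay between them and the WT + CBE libraries. Ctsc rose 8.53-fold in WT (log2 3.09 ± 0.25, adjusted p = 1.15e-07, edgeR) and 2.63-fold in MyTrMaSt (log2 1.40 ± 0.22, adjusted p = 0.00054). After CBE it was 2.40-fold lower in MyTrMaSt than in WT (log2 -1.26 ± 0.18, adjusted p = 0.00025). Without WT + PBS replicate 1, where it had 3 counts, the rise in WT was 2.93 ± 0.23 on the log2 scale, below the 3.30 of Ctsz.

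Ctsz, a carboxypeptidase, stood at 74.0, 30.4 and 23.6 CPM in WT + PBS and at 248, 270.3 and 288 CPM in WT + CBE. In MyTrMaSt it went from 24.9, 27.5 and 27.8 CPM to 135, 148, 158, 121 and 149 CPM. The highest WT + PBS value is that of replicate 1, and it still lay below every CBE library. Ctsz rose 6.74-fold in WT (log2 2.75 ± 0.28, adjusted p = 1.50e-06, edgeR) and 5.31-fold in MyTrMaSt (log2 2.41 ± 0.26, adjusted p = 7.87e-06). With WT + PBS replicate 1 left out, the rise in WT was 3.30 ± 0.17 on the log2 scale. After CBE it was lower in MyTrMaSt by a log2 of -0.92 ± 0.22 (adjusted p = 0.0268), under 2-fold. The difference between the rises was -0.34 (95% interval -1.11 to 0.42), and without WT + PBS replicate 1 it was -0.89 ± 0.21 (adjusted p = 0.0417).

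Ctsh, an aminopeptidase, stood at 27.1, 19.9 and 23.2 CPM in WT + PBS and at 75.4, 75.6 and 57.8 CPM in WT + CBE. In MyTrMaSt it went from 20.03, 14.001 and 13.4 CPM to 28.4, 26.7, 28.0, 24.6 and 33.7 CPM, so that the MyTrMaSt + CBE values overlapped those of WT + PBS and lay below those of WT + CBE. Ctsh rose 3.06-fold in WT (log2 1.61 ± 0.20, adjusted p = 2.18e-05, edgeR). In MyTrMaSt it rose by 0.84 ± 0.19 on the log2 scale (adjusted p = 0.00975), under 2-fold, and it passed 2-fold without MyTrMaSt + PBS replicate 1 (1.05, adjusted p = 0.00819). After CBE it was 2.47-fold lower in MyTrMaSt than in WT (log2 -1.30 ± 0.17, adjusted p = 6.96e-05). The difference between the rises was -0.77 ± 0.28 with an adjusted p of 0.289.

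Cst3, the inhibitor, stood at 5239.7, 1957 and 2386 CPM in WT + PBS, of which the first is replicate 1, and at 2785, 3899.7 and 3969 CPM in WT + CBE. In MyTrMaSt it went from 2578, 2458 and 2175 CPM to 2992, 3381, 3650.2, 4181 and 4234 CPM. The groups overlapped in WT and did not overlap in MyTrMaSt. The log2 difference with CBE was 0.15 in WT (95% interval -0.40 to 0.71) and 0.62 in MyTrMaSt (0.11 to 1.12, adjusted p = 0.128, edgeR). Without WT + PBS replicate 1 Cst3 rose by 0.72 ± 0.16 in WT (adjusted p = 0.0037) and by 0.62 ± 0.13 in MyTrMaSt (adjusted p = 0.0018), both under 2-fold. After CBE its level in MyTrMaSt was 1.04-fold of that in WT, with an interval from 0.735 to 1.47.

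**Figure D2:**
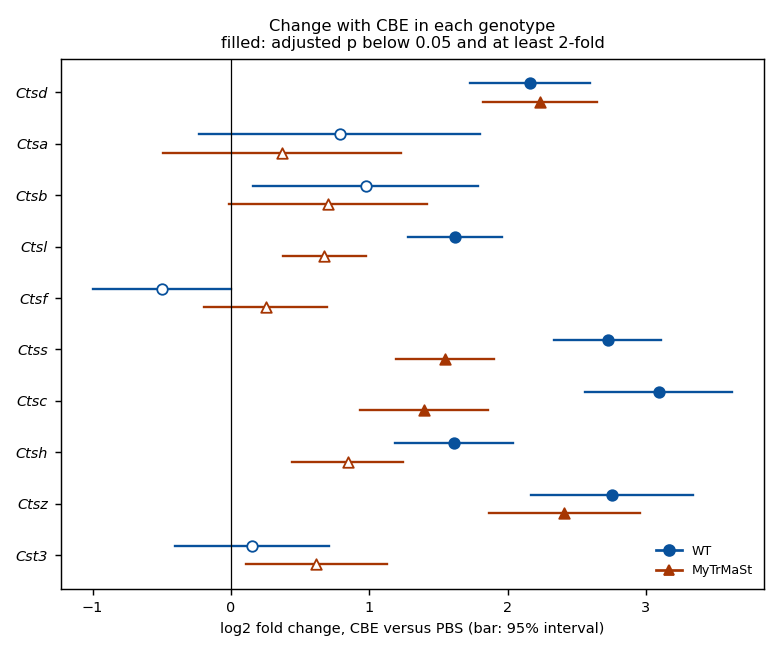
Log2 fold change of CBE versus PBS for each member in WT (circles) and MyTrMaSt (triangles) mice, with 95% intervals as bars; filled symbols are DEGs. Ctsd lies at 2.16 and 2.23, while Ctsc lies at 3.09 and 1.40 and Ctss at 2.72 and 1.55.

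Comparing the genotypes after CBE asks how far the missing adaptors went with the level reached in treated mice. In MyTrMaSt 3 of the 10 members, Ctss, Ctsh and Ctsc, were lower DEGs, beside 1.93% of all genes, and none was a higher DEG. All MyTrMaSt + CBE libraries lay below all WT + CBE libraries for 6 of the 10, beside 6.02% of all genes. The additional 3 were Ctsd, Ctsl and Ctsz. Ctsa, Ctsb, Ctsf and Cst3 overlapped. The median log2 difference was -0.52 for the members and 0.018 over all genes. Among female mice alone (4 MyTrMaSt + CBE and 2 WT + CBE), the log2 differences were -1.65 for Ctss (adjusted p = 5.72e-05), -1.20 for Ctsh (adjusted p = 0.00268) and -1.26 for Ctsc (adjusted p = 0.00377, edgeR). Among the same females Ctsl (-0.51, adjusted p = 0.269) and Ctsz (-0.86, adjusted p = 0.224) no longer had an adjusted p below 0.05.

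After PBS 0 of the 10 members were called between the genotypes, beside 0.16% of all genes tested by edgeR. DESeq2 and limma voom called 0 as well, and 4 members had an unadjusted p below 0.05, namely Ctsf, Ctss, Ctsd and Ctsh, beside 16.8% of all genes. Their adjusted p-values were 0.174 for Ctsf, 0.182 for Ctss, 0.226 for Ctsd and 0.233 for Ctsh. The 3 WT + PBS mice were male and the 3 MyTrMaSt + PBS mice female, so genotype and sex cannot be told apart in this comparison. The median log2 difference of the members was -0.45, beside 0.0037 over all genes, and this value rests on WT + PBS replicate 1. Without that library the median was -0.02, beside 0.0047 over all genes, and 1 member had an unadjusted p below 0.05, namely Ctss, beside 11.2% of all genes. In the same fit the Ctsd difference went from -0.50 to -0.13 and that of Ctsz from -0.57 to -0.04.

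The change with CBE in MyTrMaSt minus that in WT, the genotype by treatment interaction, was called for 2 of the 10 members, Ctsc and Ctss, where 0.413% of all genes had a call in that direction. It was -1.70 ± 0.34 for Ctsc (adjusted p = 0.0302) and -1.18 ± 0.24 for Ctss (adjusted p = 0.0291, edgeR), so that the rise of each was smaller in MyTrMaSt. These calls depend on single libraries. Leaving out 1 library at a time, the adjusted p of Ctsc passed 0.05 in 9 of 14 cases and that of Ctss in 6 of 14, while the values of Ctsc stayed between -2.04 and -1.53 and those of Ctss between -1.30 and -0.96 over every alternative run. With Xist as a covariate, the adjusted p was 0.0699 for Ctsc and 0.274 for Ctss. Among the other members, the interval of the interaction excluded 0 for Ctsl (-1.38 to -0.50), Ctsh (-1.35 to -0.18) and Ctsf (0.08 to 1.42), without a call. With Ctsc and Ctss, 5 of the 10 members had an unadjusted p below 0.05 in edgeR, beside 1485 of all 11852 genes tested. The Ctsf value was 0.30 without WT + PBS replicate 1.

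**Figure D3:**
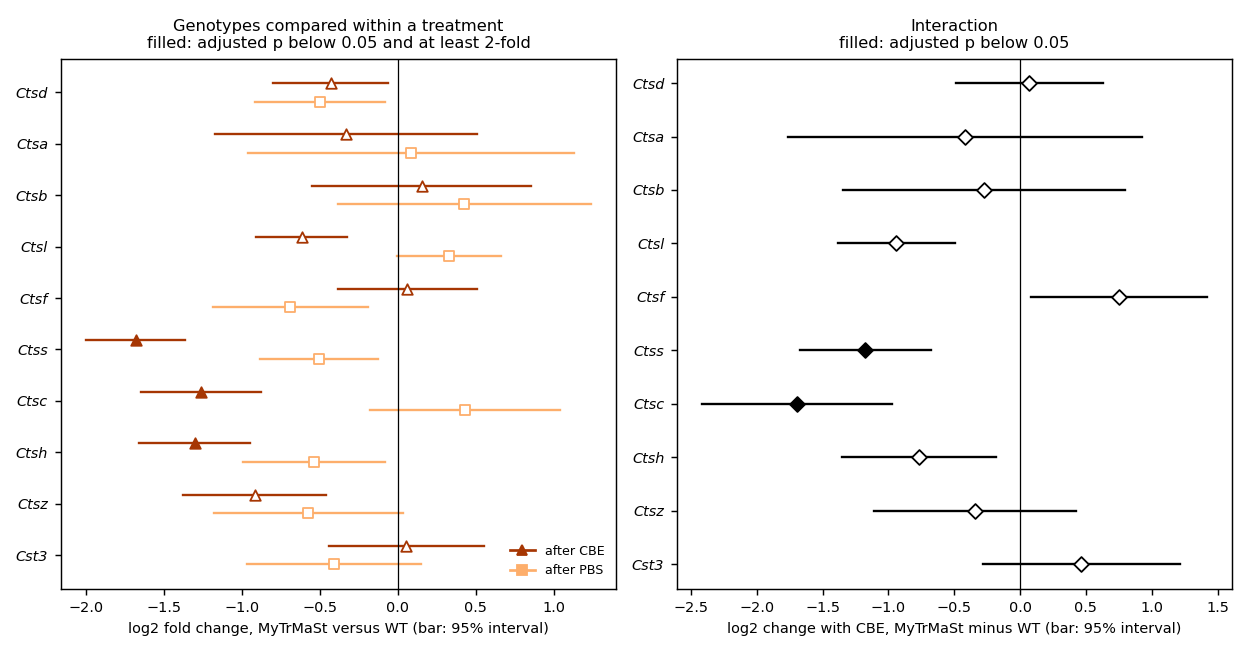
Left, log2 fold change of MyTrMaSt versus WT for each member after CBE (triangles) and after PBS (squares); right, the interaction (change with CBE in MyTrMaSt minus WT), each with its 95% interval. Filled symbols passed the test, which were Ctss, Ctsc and Ctsh after CBE (-1.68, -1.26 and -1.30) and Ctsc and Ctss in the interaction.

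The 9 cathepsins were then added up. Their summed level was 1925, 1383 and 1294 CPM in WT + PBS and 6407, 6137 and 5966 CPM in WT + CBE. In MyTrMaSt it was 1267, 1243 and 1313 CPM after PBS and 3732 to 4480 CPM after CBE, with a mean of 4051 ± 324 (SD, n = 5). The treated groups did not overlap with each other or with the PBS groups. Divided by Cst3, the sum was 0.367 to 0.707 after PBS and 1.503 to 2.30 after CBE in WT, and 0.491 to 0.604 and 0.893 to 1.33 in MyTrMaSt. The counted 3′ ends of the cathepsins were thus fewer than those of Cst3 in all PBS libraries, and more in all 3 WT + CBE libraries and in 4 of the 5 MyTrMaSt + CBE libraries. Ctsd, which Cst3 does not inhibit, is part of this sum.

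The make-up of the sum also differed between groups. The share of Ctsd was 62.8%, 49.7% and 44.7% in WT + PBS and 57.5 to 61.0% in WT + CBE. In MyTrMaSt it went from 39.5 to 50.0% up to 66.9 to 68.2%. The MyTrMaSt + CBE libraries had the highest Ctsd shares of all 14. Ctss made up 6.24 to 12.6% of the sum in WT + PBS and 13.8 to 16.2% in WT + CBE, but 6.46 to 9.76% and 6.58 to 7.52% in the MyTrMaSt groups. The share of Ctss was therefore higher after CBE in each WT library and was not in MyTrMaSt. Ctsf went from 7.24 to 11.3% down to 1.42 to 1.68% in WT and from 6.14 to 7.39% down to 2.15 to 2.79% in MyTrMaSt. Its own level with CBE differed by a log2 of -0.50 in WT (-0.04 without WT + PBS replicate 1) and of 0.25 in MyTrMaSt. Ctsl was at 13.97 to 27.3% after PBS and 14.6 to 17.8% after CBE in WT, and at 28.9 to 36.2% and 15.0 to 16.7% in MyTrMaSt.

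**Figure D4:**
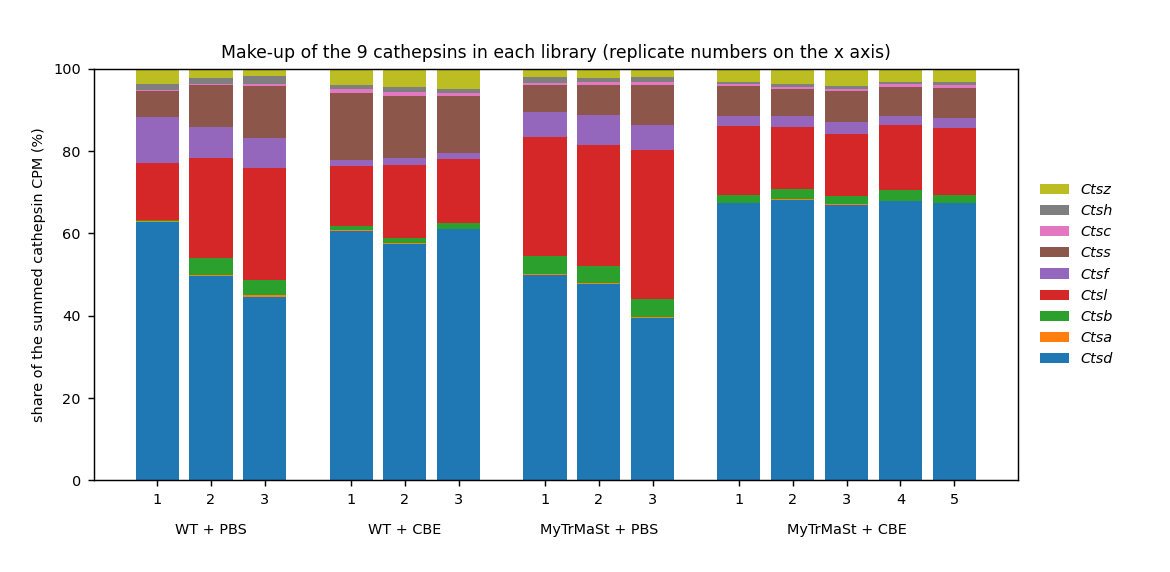
Share of each cathepsin in the summed CPM of the 9 cathepsins (%, stacked to 100), 1 bar per library grouped by genotype and treatment. Ctsd takes 66.9 to 68.2% in MyTrMaSt + CBE and 57.5 to 61.0% in WT + CBE, and Ctss takes 6.58 to 7.52% and 13.8 to 16.2%.

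The summed level of microglia markers was higher with CBE in both genotypes. Of 12 markers of homeostatic or general microglia, 11 were listed and tested, none of them at 0 in a whole group. The sum was 248 to 260 CPM after PBS and 551 to 704 CPM after CBE in WT, and 259 to 279 and 435 to 533 CPM in MyTrMaSt. In WT 6 of the 11 were upregulated DEGs, with log2 fold changes of 2.68 for Aif1, 1.97 for Itgam and 1.93 for Fcrls, while 4 were in MyTrMaSt. The WT count was 8 without WT + PBS replicate 1. Csf1r (0.98) and Sall1 in WT and Csf1r and Itgam (0.83) in MyTrMaSt passed the adjusted p alone. Siglech was not called, at -0.16 in MyTrMaSt and at -0.14 in WT, which was -0.48 without WT + PBS replicate 1. After CBE the sums of the genotypes did not overlap, and 7 of the 11 markers had a log2 difference below 0 in MyTrMaSt (median -0.43). Aif1 (-1.60, adjusted p = 0.000364, edgeR) was the 1 DEG among them, with Tmem119 at -0.84 (adjusted p = 0.0763), Itgam at -0.75 (adjusted p = 0.061) and Olfml3 at 0.57 (adjusted p = 0.165). P2ry12 was not called with CBE, at -0.49 in MyTrMaSt and at 0.05 in WT, which was -0.32 without WT + PBS replicate 1, where it had 3 counts. Divided by the summed markers, Ctsd went from 2.22 to 4.65 up to 5.52 to 6.40 in WT and from 2.003 to 2.34 up to 4.69 to 6.21 in MyTrMaSt. Ctsz went from 0.0909 to 0.285 up to 0.353 to 0.490 in WT and from 0.0917 to 0.107 up to 0.251 to 0.340 in MyTrMaSt. For both genes the ratios after CBE lay above those after PBS without overlap in each genotype.

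For Ctss the ratio went from 0.462 to 0.627 up to 1.32 to 1.70 in WT and from 0.302 to 0.495 up to 0.526 to 0.674 in MyTrMaSt. For Ctsc it went from 0.0104 to 0.0325 up to 0.0721 to 0.1004 in WT and from 0.0255 to 0.0367 up to 0.0370 to 0.0510 in MyTrMaSt. The treated genotypes did not overlap in either ratio. For Ctsl and Ctsh the ratios after CBE and after PBS overlapped in both genotypes. That of Ctsl was 1.03 to 1.36 and 1.33 to 1.98 in WT, and 1.31 to 1.83 and 1.06 to 1.49 in MyTrMaSt. That of Ctsh was 0.0804 to 0.104 and 0.0923 to 0.137 in WT, and 0.0501 to 0.0739 and 0.0510 to 0.0681 in MyTrMaSt. The Ctsf ratio was lower after CBE without overlap, at 0.360 to 0.833 and then 0.129 to 0.173 in WT. In MyTrMaSt it was 0.288 to 0.329 after PBS and 0.168 to 0.255 after CBE. The Cst3 ratio went from 7.90 to 20.2 down to 3.96 to 7.07 in WT, without overlap. It overlapped in MyTrMaSt (8.39 to 9.51 and 6.87 to 8.57), as did those of Ctsa and Ctsb in both genotypes. The part of microglial number or state in these changes was not tested.

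**Figure D5:**
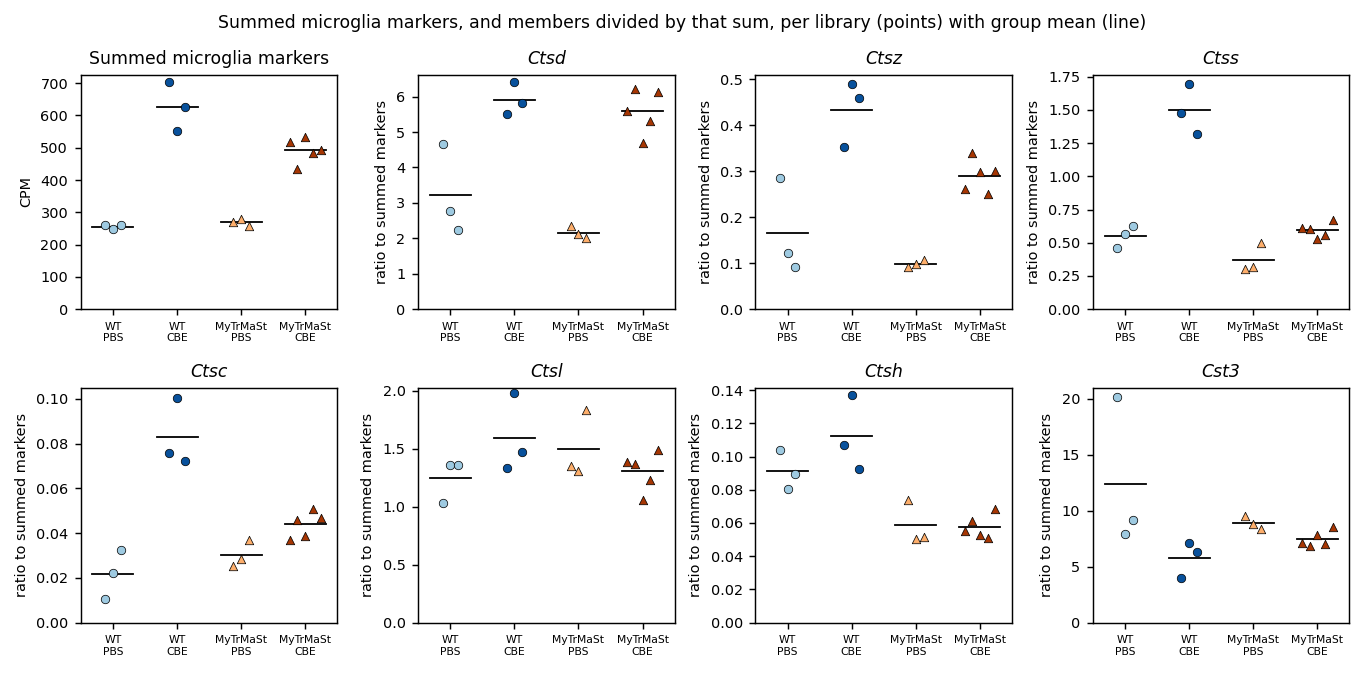
First panel, the summed CPM of 11 microglia markers; other panels, the CPM of a member divided by that sum, for each library (points) with the group mean (line). After CBE the Ctsd ratio lies at 5.52 to 6.40 in WT and 4.69 to 6.21 in MyTrMaSt, while that of Ctss lies at 1.32 to 1.70 and 0.526 to 0.674.

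Markers of other cells were looked at in the same way. Of 7 markers of monocytes and macrophages 4 were listed, and their sum went from 14.4 to 28.9 CPM up to 189 to 214 CPM with CBE in WT, and from 18.2 to 18.3 CPM up to 92.4 to 109 CPM in MyTrMaSt. Of the 3 tested, Lyz2 (log2 3.71) and F13a1 (2.14, from 0 to 5 counts in WT + PBS) were upregulated DEGs in WT and Lyz2 (2.96) in MyTrMaSt, and Lyz2 was lower in MyTrMaSt after CBE (-1.05, adjusted p = 0.00184, edgeR). Nearly all of the treated sum was Lyz2, a lysozyme that microglia can also make, with a mean of 187 ± 15.0 CPM (SD, n = 3) in treated WT mice and 90.1 ± 6.05 (n = 5) in treated MyTrMaSt mice. Of 8 astrocyte markers 2 were upregulated DEGs in WT, Gfap (log2 3.31) and Aqp4 (1.81), and 1 in MyTrMaSt, Gfap (3.31). The Gfap level was uneven in WT + PBS, from 27.4 to 98.4 CPM, against 46.1 to 54.9 CPM in MyTrMaSt + PBS. Slc1a3 (0.66) and S100b (-0.57) in WT and Aldh1l1 (0.87) and Aldoc (0.70) in MyTrMaSt passed the adjusted p alone, though S100b did not without WT + PBS replicate 1 (-0.45, adjusted p = 0.0506). Of 10 neuron markers, 1 was a downregulated DEG in each genotype, and these were different genes. Slc17a7 was the one in WT (-1.60, adjusted p = 0.0212), a call that rests on WT + PBS replicate 1 and was lost without it (-0.43, adjusted p = 0.109), and it stood at 0.51 in MyTrMaSt (adjusted p = 0.45). Slc17a6 was the one in MyTrMaSt (-1.43, adjusted p = 0.00141) and stood at -0.65 in WT (adjusted p = 0.191), where its PBS libraries ran from 15.3 to 63.3 CPM. With all libraries the interaction was called for neither gene (adjusted p = 0.149 for Slc17a7 and 0.419 for Slc17a6, edgeR). Tubb3 in WT (-0.91, adjusted p = 0.000595) and Snap25 in MyTrMaSt (-0.52, adjusted p = 0.0162) passed the adjusted p alone. With CBE in WT all 8 oligodendrocyte markers had a log2 difference below 0, and 5 of the 8 passed the adjusted p alone, Mag (-0.998, adjusted p = 0.014, edgeR), Mog (-0.99, 0.00118), Cnp (-0.90, 0.00325), Mbp (-0.68, 0.014) and Mobp (-0.66, 0.00781). Their sum went from 17239 to 20494 CPM down to 10467 to 13602 CPM in WT. The MyTrMaSt sums, 17106 to 20363 CPM after PBS and 12889 to 17143 CPM after CBE, overlapped, and 0 of the 8 markers passed the adjusted p there. None of 8 oligodendrocyte, 4 endothelial, 5 choroid plexus or 1 blood markers tested was a DEG. The endothelial marker Itm2a passed the adjusted p alone in WT (-0.74, adjusted p = 0.0201) and in MyTrMaSt (-0.94, adjusted p = 0.00166). After PBS the choroid plexus markers summed to 1259 to 3382 CPM in WT and to 2556 to 4245 CPM in MyTrMaSt. The part of these cells in the members' changes was not tested.

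Other genes of the pathway were taken from lists by role. Of 20 other protease inhibitors 5 were tested, and 3 of them were upregulated DEGs in WT. Cst7 (cystatin F), which inhibits Ctsc and other cathepsins inside cells, had 1 to 4 counts in WT + PBS and stood at 100.3 ± 17.7 CPM in WT + CBE. In MyTrMaSt it had 0 to 5 counts after PBS and 31.8 ± 5.65 CPM after CBE, lower than in WT + CBE by a log2 of -1.66 (adjusted p = 4.51e-05, edgeR). Its fold changes with CBE passed the test in both genotypes (adjusted p = 4.05e-09 and 1.07e-07), but rest on these few counts in PBS.

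Serpina3n, a secreted serine protease inhibitor, rose from 27.0 ± 8.64 to 1612 ± 217 CPM in WT and from 36.6 ± 7.36 to 630.4 ± 165 CPM in MyTrMaSt. Its interaction was -1.73 ± 0.34 (adjusted p = 0.0272, edgeR). Serpina3g, which can inhibit cathepsins inside cells, rose by a log2 of 1.77 in WT (adjusted p = 0.00953), and after CBE its log2 difference between MyTrMaSt and WT was -2.64 (adjusted p = 0.000285). Cstb (stefin B), the inhibitor of the cytosol, rose by 0.82 in WT and by 0.77 in MyTrMaSt on the log2 scale (adjusted p = 0.0144 and 0.0154), under 2-fold, and by 1.12 in WT without WT + PBS replicate 1, a DEG there. With all libraries, the 3 DEGs among these inhibitors were lower in MyTrMaSt than in WT after CBE, and Cst3 was not.

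Of 14 other cathepsins, Ctsk and Ctse were listed. Ctsk, the collagenolytic cathepsin of bone, was not called, with a log2 difference of 0.63 in WT (adjusted p = 0.143, edgeR) and 0.06 in MyTrMaSt. Ctse had 0 counts in all WT + PBS libraries, did not pass the filter and reached 10 counts in 1 WT + CBE library. Of 6 other lysosomal proteases tested, 0 were DEGs in WT with edgeR, and 2 of the 6, Scpep1 (log2 0.92, adjusted p = 0.00387) and Lgmn (0.86, adjusted p = 0.0399), passed the adjusted p alone, as did Scpep1 in MyTrMaSt (0.83, adjusted p = 0.00543). Lgmn, the asparaginyl endopeptidase that matures several cathepsins, was the 1 DEG in MyTrMaSt (1.13 ± 0.24, adjusted p = 0.00641). Its smaller value in WT rests on WT + PBS replicate 1, without which it rose by 1.42 ± 0.15 in WT (adjusted p = 3.77e-07), also a DEG.

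Of the 14 genes of sorting to the lysosome, among them both mannose 6-phosphate receptors (M6pr at -0.02 and Igf2r at -0.07 in WT, and M6pr at 0.11 without WT + PBS replicate 1), 0 were DEGs with edgeR in either genotype, with a median log2 difference of -0.10 in WT and 0.10 in MyTrMaSt. Lrp1 (0.73) and Vps29 (-0.53) passed the adjusted p alone in MyTrMaSt. In the fit without WT + PBS replicate 1, Lrp1 also passed in WT (0.44, adjusted p = 0.0282) and Vps35 in MyTrMaSt (-0.68, adjusted p = 0.00255). Of 9 partners and precursors of lysosomal proteins, Grn (progranulin, 2.37), Galns (a sulfatase, 1.52) and Lamp2 (a lysosomal membrane protein, 1.03) were upregulated DEGs in WT, and Grn (2.03) and Galns (1.26) in MyTrMaSt. Lamp2 was under 2-fold without WT + PBS replicate 1 (0.86). Lamp1 passed the adjusted p alone in both genotypes (0.43 in WT and 0.45 in MyTrMaSt). None of 3 tested MiT/TFE factors, which bind the CLEAR element, was a DEG. Tfe3 passed the adjusted p alone in WT (0.64, adjusted p = 0.0446, edgeR) but not without WT + PBS replicate 1 (0.57, adjusted p = 0.0548), and stood at 0.42 in MyTrMaSt (adjusted p = 0.153). Tfeb stood at 0.33 in MyTrMaSt and at -0.45 in WT, which was 0.21 without WT + PBS replicate 1.

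Ctss acts in the loading of MHC class II. Of 6 genes of that pathway tested, H2-DMb1 (2.05), H2-Ab1 (1.91) and H2-Aa (1.24) were upregulated DEGs in WT and H2-DMb1 (2.10) in MyTrMaSt. Cd74, the invariant chain that Ctss cleaves, had a mean of 12.6 ± 2.74 CPM after CBE in WT and of 4.44 ± 1.53 CPM after CBE in MyTrMaSt, a log2 difference of -1.49 (adjusted p = 0.0131, edgeR). With CBE alone Cd74 was not called in either genotype, but it was in WT without WT + PBS replicate 1 (1.20, adjusted p = 0.0233). Except for H2-DMa (45 to 133 counts over all libraries), these genes had low counts, from 6 to 41 for Cd74 in the treated libraries.

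The genes whose profile over the 14 libraries lay nearest to each member were sought among 7134 tested genes of at least 20 CPM, by the root mean square difference of log2 CPM after centring each gene on its own mean. Ctsd lay nearest to Grn (0.197), C1qb and C1qa, and Ctsz to C1qa (0.259), C1qb and Tyrobp, which are genes of the complement and of a microglial receptor adaptor. Ctsc lay nearest to Vim (0.291), Msn and Adgre1, and Ctss to Tspo (0.369), AF251705 and Vim. Ctsl lay near Ehd4 (0.209) and Srgn, and Ctsh nearest to Serping1 (0.288), Psme2 and Nfkbia. Ctsb lay nearest to Tmsb4x (0.237), Gna13 and Eif5, Ctsf to Mapk14 (0.105), Pigyl and Camkv, Cst3 to Tmbim1 (0.208), Pias3 and Acap3, and Ctsa to 9130024F11Rik (0.351) and 2900055J20Rik. Among the members themselves the nearest pairs were Ctsd and Ctsz (0.298), Ctsf and Cst3 (0.346), Ctsh and Ctsl (0.456) and Ctsc and Ctss (0.479). These distances are over 14 libraries that share groups, and the profiles of Ctsb, Ctsf, Cst3, Ctsz and Ctsd follow WT + PBS replicate 1 in part.

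The members lie on 7 chromosomes of GRCm38 and are protein-coding. Exons of another gene on the same strand overlap those of Ctsd (Gm49369) and Ctsl (the processed pseudogene Gm49230). Exons on the opposite strand overlap those of Ctsa (Neurl2 and Pltp), Ctsb (Fdft1), Ctsl (Gm47123) and Ctsz (Nelfcd). The use of strand in counting is not stated, so that reads of these pairs may have been left out or shared. Ctsc, Ctsf, Ctsh, Ctss and Cst3 overlap no other exon.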

How the data were processed

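Bulk MARSseq libraries, which count transcript 3′ ends, were made by the authors from brain homogenates of 14 mice and sequenced on a NextSeq 500. Reads were mapped to mm10 with hisat and uniquely mapped reads were kept. The labels also name cutadapt and HTSeq. The annotation, the strand setting and the use of molecular identifiers are not given in the sources used here. The deposited values used are raw counts per gene, 1290616 to 3704691 per library, and every listed gene reached 6 counts in some library. Sampling error is large for members with few counts, such as Ctsa and Ctsc in PBS libraries. A normalized table and a table of the authors' own comparisons (means, log2 fold changes, p-values) were not used.

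Tests used edgeR 4.0.16 in R 4.3.3. After filterByExpr, applied with the 4 groups, 11852 genes remained. Library sizes were TMM-scaled, and 1 mean per group was estimated from the 14 libraries together by quasi-likelihood, with Benjamini-Hochberg adjustment over every gene tested. A DEG had an adjusted p below 0.05 and at least a 2-fold change, and the interaction was called at an adjusted p below 0.05. SE and 95% intervals come from that fit, whose fold changes use a prior count of 0.125. Replicates are separate mice. The procedure was tested on simulated data. Alternatives were edgeR RLE factors, library totals, other filters, DESeq2 1.42.0, limma 3.58.1 voom, a replicate block, Xist as a covariate, only the groups compared, the adjusted p alone, and leaving out each library; a fit within 1 sex was added after the data were seen. Named genes were all members, the called genes of lists by role with at most 3 of the largest and 2 of the smallest fold changes per list (all of them for other cathepsins and inhibitors), and the 3 nearest profiles of each member (some genes of these lists and profiles are not reported here); genes named without a call were chosen after their values were seen. The members and lists were chosen with earlier results of these data known. Marker lists were for microglia, monocytes and macrophages, astrocytes, neurons, oligodendrocytes, endothelium, choroid plexus and blood.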

Additional observations from a re-analysis of the deposited data

Results flagged for a closer look

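The change with CBE differed between the genotypes for 2 members by the test of the difference itself. For Ctsc the change in MyTrMaSt minus that in WT was -1.70 on the log2 scale (95% interval -2.41 to -0.98, adjusted p = 0.0302, edgeR), with a rise in both genotypes. All 5 MyTrMaSt + CBE libraries lay below all 3 WT + CBE libraries for this gene. For Ctss the value was -1.18 (95% interval -1.67 to -0.68, adjusted p = 0.0291, edgeR), with the same order of the libraries. The sexes were not balanced between the groups, and with the Xist level as a covariate both adjusted p-values were above 0.05 (0.0699 for Ctsc and 0.274 for Ctss). They were also above 0.05 with the replicate block (0.0963 and 0.129), and in 9 and 6 of 14 cases when 1 library was left out. Dixon's test was run on MyTrMaSt + CBE alone, where no library stood apart for any member. The groups of 3, WT + PBS with its replicate 1 among them, were not put to that test.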

How the results depend on the processing

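Of 1153 values of members under an alternative, 1110 kept their direction and their side of the threshold, 19 lost a call, 5 gained one and 19 changed sign, of which 0 had been called. The 1110 include members without a call to lose. They also include fits without a library of a group that was not compared, which could change little but the shared spread. The counts of members called with CBE in WT stayed at 5 to 7, beside 3.14 to 10.6% of all genes called in either direction. In MyTrMaSt they stayed at 3 to 6, beside 2 to 7.75% of all genes. The lowest counts, 5 and 3, came with at least 10 counts in every library, where Ctsc was not tested. After CBE the adjusted p alone called 5 members in place of 3, beside 2.54% of all genes. For the interaction, in place of 2 members, 1 was called with at least 10 counts in every library (Ctsc is not tested there), 0 with the Xist covariate and 0 with the replicate block, 3 with DESeq2 (Ctsl in addition), and 0 to 4 when 1 library was left out. The count was 4 without WT + PBS replicate 1, 1 without WT + PBS replicate 2, MyTrMaSt + PBS replicate 1 or 2 or MyTrMaSt + CBE replicate 1 or 4, and 0 without WT + CBE replicate 1 or 2, MyTrMaSt + PBS replicate 3 or MyTrMaSt + CBE replicate 2 or 3. Over the alternatives for the interaction, from 0.0759% of all genes (Xist covariate) to 0.938% (DESeq2) were called in either direction.

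Deviations of same-numbered PBS and CBE libraries of a genotype had correlations from -0.12 to 0.02, and the main fit used no pairing. Libraries of different numbers were not compared, so a shared litter or batch cannot be told from these values. With the replicate block the interaction was -1.83 for Ctsc (adjusted p = 0.0963) and -1.21 for Ctss (adjusted p = 0.129). No other call of a member changed with it.

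Values that changed sign are on the log2 scale. After CBE between genotypes, Ctsa was 0.039 and Cst3 -0.0055 with the replicate block, Ctsa was 0.054 within females, and Cst3 ran from -0.10 to 0.14 when 1 library was left out. After PBS, Ctsa was -0.082 with the Xist covariate and ran from -0.31 to 0.49 when 1 library was left out, Ctsb from -0.0027 to 0.90 and Cst3 from -0.67 to 0.14. With CBE in WT, Cst3 ran from -0.095 to 0.72. The Ctsd interaction was -0.058 with library totals, -0.040 with at least 10 counts in every library and -0.027 with limma voom. Leaving out 1 library, it ran from -0.31 to 0.27, that of Ctsb from -0.75 to 0.15 and that of Cst3 from -0.10 to 0.72. The fit within 1 sex, chosen after seeing the data, kept 4 members in MyTrMaSt, beside 3.22% of all genes, and 3 after CBE, beside 1.71%. In WT it used males with 1 WT + CBE library, which is assumed to vary like the other groups. There the 6 members called in the main fit rose by log2 values from 1.72 (Ctsh) to 3.20 (Ctsc). No such fit was possible after PBS or for the interaction. The causes were not tested.

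Over all genes, the count of DEGs moved by more than 1.5 times as follows. In WT it went from 759 to 261 under the filter of 10 counts in each library, 459 with only the groups compared, 498 within males and 1255 with the adjusted p alone. It went in MyTrMaSt from 461 to 166 with that filter, 292 with the replicate block and 919 with the adjusted p alone, and after CBE from 238 to 47 with that filter. After PBS it went from 19 to 110 with DESeq2, 11 with that filter, 7 with the block, 3 with the Xist covariate, 2 with only the groups compared, and 5 to 303 when 1 library was left out. The interaction went from 58 to 130 with DESeq2, 18 with that filter, 32 with the block, 9 with the Xist covariate, and 24 to 105 when 1 library was left out.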
